A study of Mus musculus with 21 samples.

Results

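The mitotic genes described here are 10 genes that dividing cells use from the G2 phase to the end of mitosis: Mki67, Top2a, Birc5, Cdc20, Ccnb1, Ccnb2, Plk1, Aurkb, Bub1 and Pbk. They were taken by gene symbol from the deposited table, which holds 22520 genes, and all 10 had a row. The table gives FPKM (fragments scaled to gene length and to the mapped fragments of the library) for mouse liver in 12 columns, 1 for each of 4 genotypes in 3 conditions. The labels name WT (Ezh2fl/fl, floxed and without Cre), E1KO (Ezh1-/-), E2KO (Ezh2fl/flAlb-Cre, in which the albumin promoter drives Cre in hepatocytes) and DKO (Ezh1-/-Ezh2fl/flAlb-Cre), all on a mixed 129SV::FVB/N::C57BL/6 background. Animals were 2 months old, 8 months old, or 3 months old and injected with CCl4 (carbon tetrachloride), a toxin that hepatocytes activate and that kills them; the labels used here give no dose and no time between injection and sampling. The titles name replicates 1 to 3 for each group, or 1 to 2 at 8 months, but the table holds 1 column per group, so no spread between animals can be given.

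PRC2, the Polycomb complex, places the repressive mark H3K27me3 through either Ezh1 or Ezh2 as its enzyme. Adult hepatocytes rarely divide, and they re-enter the cell cycle when the liver is injured. The genes of G2 and mitosis are held down together in resting cells by the DREAM complex and switched on together, late in the cycle, by MuvB with B-Myb and FoxM1. These factors reach their promoters through CHR elements, next to CCAAT boxes bound by NF-Y.

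Because these genes moved together across the 12 columns, the promoters of 5 members with matches to both kinds of element are shown first. That of Ccnb1, which matched only CCAAT among the motifs searched, is shown with them. The sequences are RefSeq's on GRCm38.p6, from a table with a window of 300 bases (250 before the annotated transcript start and 50 from it on) for 8 of the 10 genes. Searched motifs were CCAAT and TTTGAA, on both strands (so also ATTGG and TTCAAA), and TTCGAA, which reads the same on both strands; matches are in capitals, and no match of one motif overlaps a match of the other. Positions count back from -1 before the start, and the first transcribed base is 1. The windows printed are Cdc20 (chr4:118437294-118437453, minus strand), Ccnb2 (chr9:70421505-70421664, minus strand), Plk1 (chr7:122159325-122159484, plus strand), Bub1 (chr2:127831810-127831969, minus strand), Ccnb1 (chr13:100786437-100786596, minus strand) and Top2a (chr11:99024140-99024439, minus strand).
Cdc20: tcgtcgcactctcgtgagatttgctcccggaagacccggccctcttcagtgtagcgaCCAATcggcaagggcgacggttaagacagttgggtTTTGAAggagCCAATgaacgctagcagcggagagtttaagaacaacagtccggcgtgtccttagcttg
Ccnb2: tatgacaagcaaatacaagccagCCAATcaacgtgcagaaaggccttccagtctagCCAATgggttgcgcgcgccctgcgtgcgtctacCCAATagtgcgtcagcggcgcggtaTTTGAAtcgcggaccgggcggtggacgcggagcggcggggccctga
Plk1: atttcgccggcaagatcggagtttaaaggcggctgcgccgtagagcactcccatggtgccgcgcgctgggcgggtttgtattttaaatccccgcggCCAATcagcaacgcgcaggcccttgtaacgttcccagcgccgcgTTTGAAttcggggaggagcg
Bub1: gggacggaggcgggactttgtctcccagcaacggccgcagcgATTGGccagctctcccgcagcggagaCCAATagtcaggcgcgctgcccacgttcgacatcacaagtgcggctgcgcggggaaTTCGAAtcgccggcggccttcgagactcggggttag
Ccnb1: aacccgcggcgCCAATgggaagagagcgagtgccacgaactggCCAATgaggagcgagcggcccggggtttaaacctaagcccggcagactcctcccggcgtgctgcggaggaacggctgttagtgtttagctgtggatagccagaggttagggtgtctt
Top2a: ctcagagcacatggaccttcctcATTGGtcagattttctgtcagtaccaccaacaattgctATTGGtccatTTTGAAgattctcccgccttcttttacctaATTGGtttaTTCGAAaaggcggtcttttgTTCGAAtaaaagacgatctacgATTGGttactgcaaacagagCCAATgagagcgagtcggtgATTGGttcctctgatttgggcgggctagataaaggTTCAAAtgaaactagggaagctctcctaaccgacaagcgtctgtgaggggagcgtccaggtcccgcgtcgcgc

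A CCAAT match stood in 7 of the 8 windows, against 37.4% of all 32851 windows in the table and 38.1% of the 10276 windows of genes tested below. A match to TTTGAA or TTCGAA stood in 6 of 8, against 19.2% and 14.2%, and both kinds stood in 6 of 8, against 7.52% and 5.86%. Ccnb2 had 3 CCAAT matches, each 33 bases from the next, and Ccnb1 had 2 that lay 32 bases apart. Cdc20 held TTTGAA at -18 between CCAAT matches at -53 and -8. Plk1 and Bub1 carried their match of the CHR type after the start, at 31 and 15, and Ccnb2 had one at 5 and another, outside the printed stretch, at -167. The Top2a window held 6 CCAAT and 4 CHR-type matches, and that of Mki67 held 3 and 2. In the Birc5 window these letters were not found. A match is a run of letters and is not evidence of binding.

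**Figure D1:**
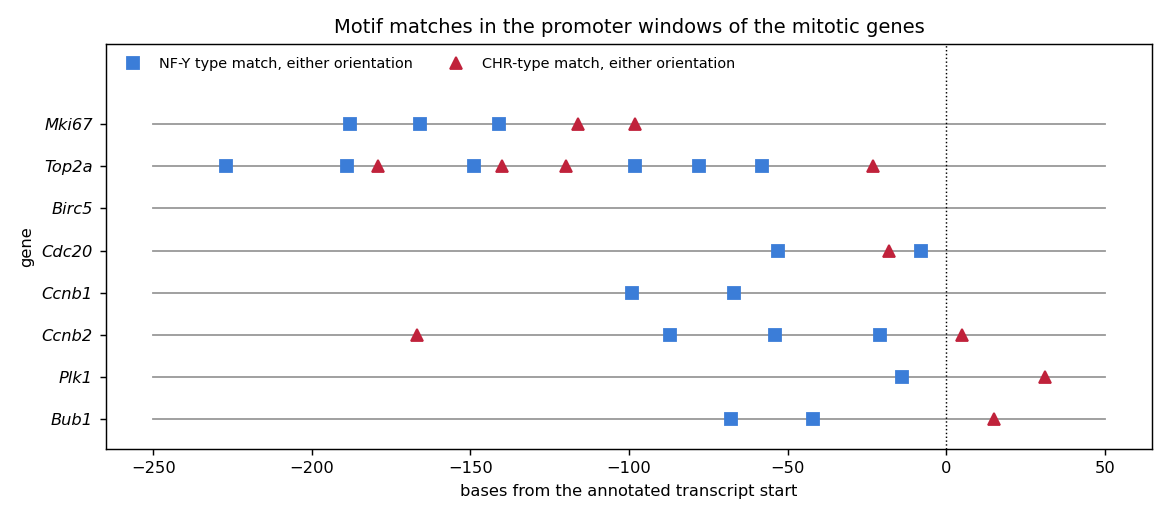
Positions of motif matches in the promoter windows of the 8 mitotic genes that the sequence table holds. The horizontal axis gives the distance in bases from the annotated transcript start (dotted line), and each symbol marks the first base of a match: squares for the NF-Y type (CCAAT or its reverse complement), triangles for the CHR type. Of the 8 genes, 7 have a square, 6 have both symbols and Birc5 has none.

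Before the results, the facts that bear on every column are these. Column totals ran from 531761 to 674119 FPKM. Ezh1 stood at 2.94% of WT at 2 months and 9.76% with CCl4 in E1KO, and at 2.94% to 13.2% in DKO. At 8 months, however, it stood at 43.1% in the column labelled E1KO. That column also held 328 FPKM of 8 skeletal muscle markers in sum, where each other column held 0.06 to 0.62, so what is said of E1KO at 8 months rests on a column that stands apart. Ezh2 RNA was 75.7%, 86.8% and 69% of WT in E2KO at 2 months, 8 months and with CCl4, and 66.7%, 140% and 44.2% in DKO. Whole liver holds cells in which Alb-Cre does not act, and their part in these levels was not tested. Hepatocyte markers (14 genes) summed to between 12703 and 23646 FPKM in every column.

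All 10 mitotic genes rose with CCl4. An additive fit of genotype and condition (limma, on log2(FPKM+1)) put the rise between 1.50 (SE 0.17) for Bub1 and 4.42 (SE 0.47) for Birc5, with a median of 3.41 against 0.07 over all 11394 genes tested. The sizes depend on the pseudocount: with 0.1 FPKM in place of 1 they ran from 3.87 for Bub1 to 5.86 for Pbk, with 5.17 for Birc5 and a median of 5.09. Adjusted p ran from 4.74e-05 to 0.000197, and the test called 33.4% of all tested genes higher. Genes were tested if they had at least 1 FPKM in at least 2 columns. Only Birc5 met that limit without the CCl4 columns, so the other 9 were let in by the columns where they are high; with no filter all 10 passed again (adjusted p 0.00047 to 0.00149), against 22.1% of the 22520 genes. The lowest CCl4 column lay above the highest of the 8 other columns for 10 of 10 genes, which held for 22.9% of tested genes. The spread in this fit is the departure of the 12 values from additivity, not a spread between animals. CCl4 animals were 3 months old and the others 2 or 8, and the call was 10 of 10 against either age and also without the 8-month E1KO column.

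**Figure D2:**
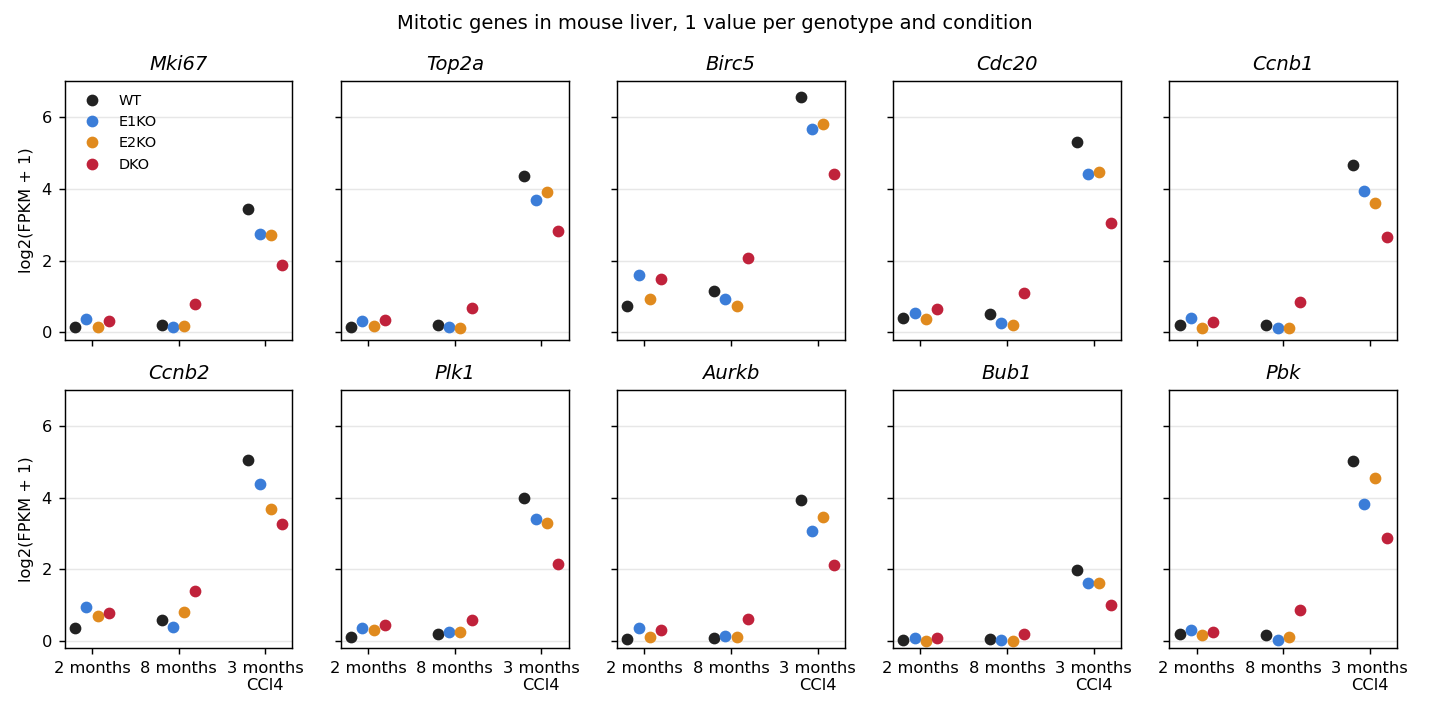
Level of each mitotic gene as log2(FPKM + 1) on the vertical axis, by condition on the horizontal axis and genotype by colour; each point is the 1 deposited value of a group. In every panel the CCl4 points lie above the others, WT is the highest and DKO the lowest of them, while at 8 months DKO is the highest.

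Cyclin B1 and cyclin B2, the partners of Cdk1 that drive entry into mitosis, went from hardly detectable to well expressed. Ccnb1 was listed at 0.15 FPKM in WT, 0.31 in E1KO, 0.09 in E2KO and 0.23 in DKO at 2 months. At 8 months it was 0.16, 0.08, 0.08 and 0.79 in the same order. After CCl4 the values were 24.09, 14.33, 11.24 and 5.35. DKO was thus the highest column at 8 months and the lowest with CCl4, where it held 22.2% of the WT level. Ccnb2 stood at 0.30, 0.95, 0.63 and 0.72 FPKM at 2 months, and at 0.52, 0.31, 0.77 and 1.62 at 8 months, in the order WT, E1KO, E2KO, DKO. With CCl4 it reached 31.95, 19.79, 11.90 and 8.56. It differs from the other members in E2KO, where its level with CCl4 was 37.2% of WT and close to that of DKO (26.8%). The ratio of the CCl4 level to that at 2 months was 106 in WT for Ccnb2 and 161 for Ccnb1.

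Plk1, the kinase that helps activate Cdk1 and builds the spindle poles, was 0.09, 0.30, 0.24 and 0.38 FPKM at 2 months in WT, E1KO, E2KO and DKO. At 8 months it was 0.16, 0.20, 0.19 and 0.52, and with CCl4 14.97, 9.53, 8.87 and 3.42. Its ratio of CCl4 to 2 months in DKO, 9, was the lowest of the 40 ratios (10 genes in 4 genotypes), and in WT it was 166. E1KO and E2KO lay close together at 63.7% and 59.3% of the WT level.

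Aurkb and Birc5 encode 2 parts of the chromosomal passenger complex, the kinase Aurora B and its partner survivin, which correct wrong attachments of chromosomes to the spindle. Birc5 was the most abundant member per length in every column but E2KO at 8 months, where Ccnb2 was. It stood at 0.66, 2.06, 0.89 and 1.81 FPKM at 2 months and 1.23, 0.91, 0.67 and 3.22 at 8 months in WT, E1KO, E2KO and DKO. With CCl4 it was 93.57 in WT, 49.51 in E1KO, 54.25 in E2KO and 20.38 in DKO, which is 21.8% of WT in the last. Aurkb was much lower, at 0.04, 0.29, 0.09 and 0.23 FPKM at 2 months and 0.07, 0.11, 0.08 and 0.55 at 8 months. With CCl4 it was 14.12, 7.38, 10.09 and 3.37. Its ratio in WT was 353. The table rounds to 0.01 FPKM, so that a level of 0.04 places this ratio only between 314 and 404.

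Bub1, a kinase of the spindle checkpoint that sits at kinetochores, had the lowest FPKM of the members in every column. It was 0.02, 0.07, 0.01 and 0.06 FPKM at 2 months, and 0.04, 0.02, 0.00 and 0.15 at 8 months, in WT, E1KO, E2KO and DKO. The CCl4 columns held 2.95, 2.08, 2.08 and 1.02. It is listed at 0 in E2KO at 8 months, so no ratio is given there, and its E2KO ratio to 2 months lies anywhere between 138 and 417 by rounding. Cdc20, the activator of the anaphase-promoting complex that the checkpoint holds in check, was 0.31, 0.44, 0.29 and 0.56 FPKM at 2 months and 0.41, 0.19, 0.16 and 1.16 at 8 months. With CCl4 it was 38.19, 20.13, 21.21 and 7.29. DKO thus held 19.1% of the WT level, the lowest share among the members. In the GRCm38.p6 gene table Cdc20 overlaps Elovl1, which stood at 18.31 to 39.89 FPKM without CCl4 and 27.74 to 33.19 with it. The handling of fragments from shared sequence was not stated. The same table names a pseudogene for Ccnb1 and for Ccnb2.

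Top2a, the topoisomerase that untangles sister chromatids, was 0.12, 0.25, 0.14 and 0.27 FPKM at 2 months and 0.16, 0.12, 0.08 and 0.60 at 8 months in WT, E1KO, E2KO and DKO. After CCl4 the levels were 19.55, 11.94, 14.05 and 6.07. Its share of WT in DKO, 31%, was exceeded among the members only by that of Bub1 (34.6%). Mki67, the gene of the proliferation antigen Ki-67 that coats mitotic chromosomes, was 0.12, 0.29, 0.11 and 0.25 FPKM at 2 months and 0.15, 0.11, 0.13 and 0.74 at 8 months. With CCl4 it was 9.83, 5.62, 5.60 and 2.71. E1KO and E2KO were nearly equal in it. Pbk, a kinase of mitotic cells, was 0.15, 0.23, 0.12 and 0.19 FPKM at 2 months and 0.13, 0.03, 0.09 and 0.81 at 8 months. Its CCl4 columns held 31.40, 13.03, 22.27 and 6.30. It showed the widest gap between E1KO (41.5% of WT) and E2KO (70.9%).

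Within each genotype the response was large in all 10 genes and was smallest in DKO. In WT the difference in log2(FPKM+1) between CCl4 and 2 months had a median of 4.32 over the members, from 1.95 to 5.83, and all 10 were past a difference of 1, as were 8.8% of tested genes. In E1KO the median was 3.39 (1.53 to 4.04), with 10 of 10 past 1 against 11% of tested genes. In E2KO it was 3.42 (1.61 to 4.87), with 10 of 10 against 10.1%. In DKO it was 2.39 (0.93 to 2.93), with 9 of 10 against 8.46%. Bub1, at 0.93, fell short, with an FPKM ratio of 17. With a pseudocount of 0.1 FPKM in place of 1 the DKO count was 10. The median over all tested genes was 0.05 to 0.08 in each genotype. As ratios of FPKM, the median response was 154 in WT, 30.7 in E1KO, 86.7 in E2KO and 13.8 in DKO. The DKO ratio was below that of WT and of both single knockouts for each member. Against 8 months the medians were 93.4 in WT, 83.3 in E1KO, 126 in E2KO (9 genes) and 6.45 in DKO, so the ratio of E1KO was low against 2 months and not against 8 months, where its column stands apart. There is no test of a response within 1 genotype, since each rests on 2 values.

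**Figure D3:**
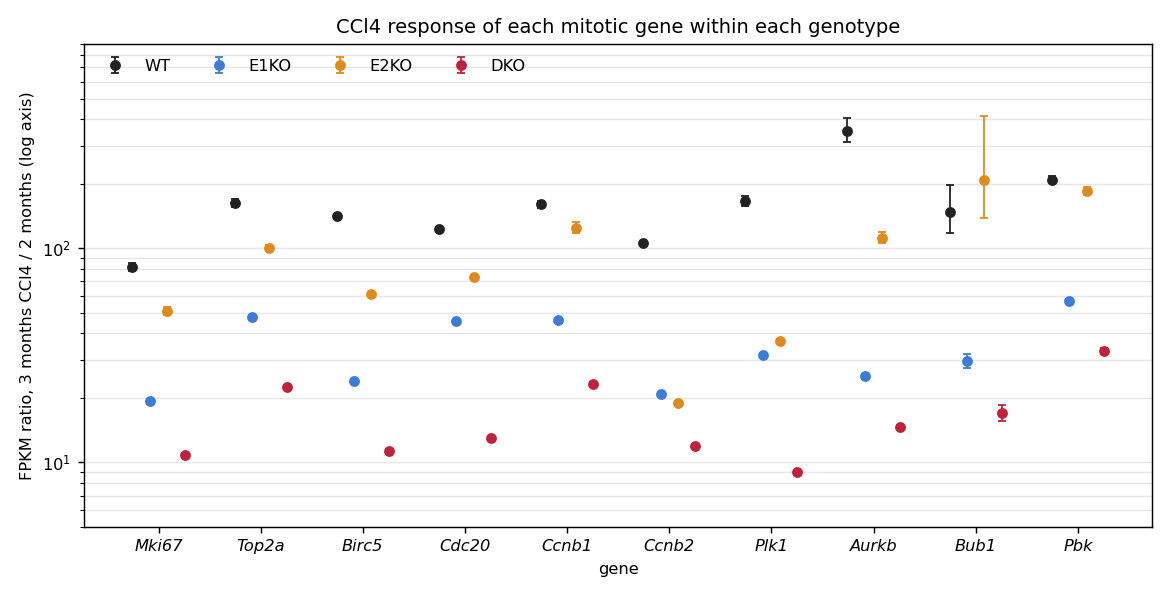
FPKM with CCl4 divided by FPKM at 2 months, on a log axis, for each mitotic gene (horizontal axis) and genotype (colour). Bars give the range that rounding of the deposited values to 0.01 FPKM allows, not an error between animals. DKO is the lowest point for every gene, from 9 for Plk1 to 33.2 for Pbk.

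With CCl4 the order of the genotypes was the same at both ends for all members. WT was the highest and DKO the lowest of the 4 columns in 10 of 10 genes, an order that 17.3% of tested genes had. DKO held 19.1% to 34.6% of the WT level (median 23.4%), E1KO 41.5% to 70.5% (58.3%) and E2KO 37.2% to 71.9% (58.6%). The difference from WT in log2(FPKM+1) was past -1 for 9 of 10 genes in DKO, against 2.47% of tested genes, for 1 of 10 in E1KO (Pbk), against 0.825%, and for 2 of 10 in E2KO (Ccnb1 and Ccnb2), against 0.579%. These 3 comparisons share the WT column. With columns scaled to the same upper quartile the E2KO count was 1. With a pseudocount of 0.1 FPKM the DKO count was 10. Between the single knockouts the order was mixed, with E1KO above E2KO in 4 of 10. In sum the 10 genes held 281 FPKM in WT, 153 in E1KO, 162 in E2KO and 64.5 in DKO. In whole tissue, fewer dividing cells and less of these RNAs per dividing cell cannot be told apart.

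The smaller response of DKO did not pass the test of the difference itself. A fit with DKO-by-condition terms set the DKO response to CCl4 against the average of the other 3 genotypes. It gave negative terms for 10 of 10 genes, from -1.99 (SE 0.59) for Birc5 and -1.88 (SE 0.37) for Cdc20 to -0.77 (SE 0.21) for Bub1, with a median of -1.47 against 0.01 over all tested genes. None passed with limma (adjusted p 0.206 to 0.677), while 9 of 10 had an unadjusted p under 0.05 (0.00168 for Cdc20 to 0.114 for Ccnb2). Lower terms passed for 0.0702% of tested genes, and 4.41% were lower at an unadjusted p under 0.05. With 8 months as the baseline the median was -1.88 and the adjusted p 0.0626 to 0.254; without the 8-month E1KO column they were -1.47 and 0.362 to 0.758. This fit has 4 residual degrees of freedom, which come from the WT, E1KO and E2KO columns. Differences between these genotypes in their change across conditions therefore widen its errors, as for Ccnb2 (SE 0.67).

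**Figure D4:**
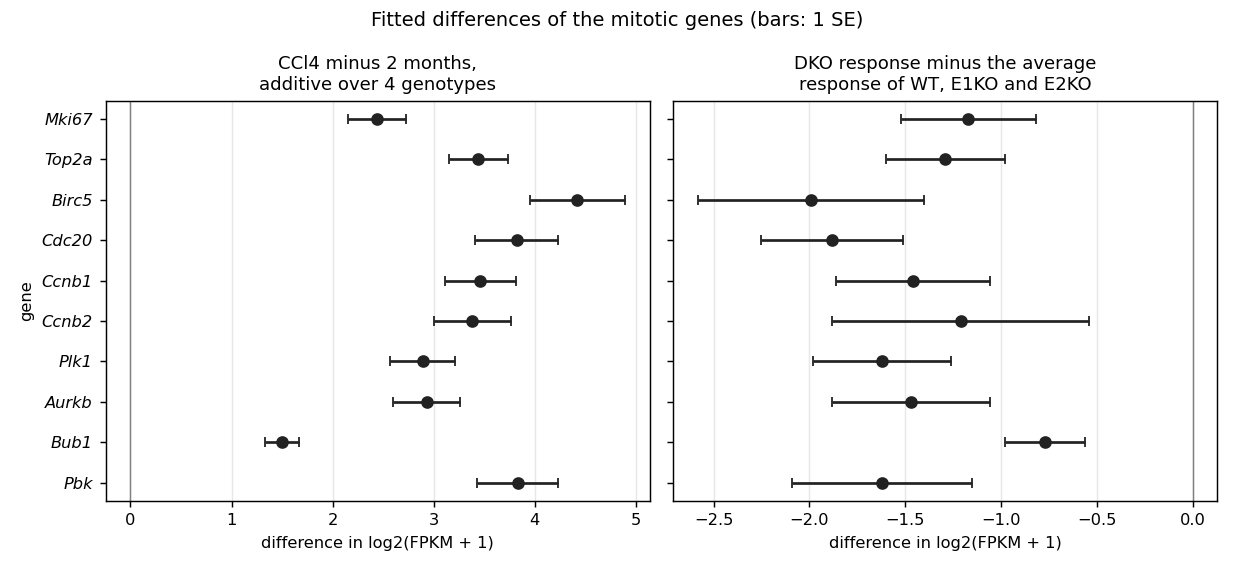
Fitted differences in log2(FPKM + 1) for each mitotic gene, with bars of 1 SE. On the left, the rise with CCl4 lies between 1.50 and 4.42; on the right, the DKO term lies between -1.99 and -0.77, below the grey line at 0 for each gene.

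Without CCl4 the levels were low, and the order of the genotypes was another one. At 2 months both columns that lack Ezh1, E1KO and DKO, were above WT and E2KO in 10 of 10 genes, as in 24.2% of tested genes. The levels there were 142% to 725% of WT in E1KO and 127% to 575% in DKO, but the largest difference in log2(FPKM+1) was 0.88, and several of these ratios divide values of a few hundredths of an FPKM. The marker sums of 3 cell types stood in the same order at 2 months, and their part in it was not tested. Stellate markers were at 34.8 FPKM in E1KO and 43.6 in DKO against 24 in WT and 22.1 in E2KO. Endothelial markers were at 55.2 and 61.9 against 44.4 and 38.8, and cholangiocyte markers at 67 and 92 against 65.1 and 47.5. A sum rests mostly on its most abundant genes. The stellate markers Acta2 and Tagln stood in this order at 2 months. Rgs5 (0.89 FPKM in E1KO and 1.28 in DKO against 1.10 in WT and 1.72 in E2KO) and Lrat (1.91 and 1.77 against 1.38 and 1.95) did not. The endothelial markers Lyve1, Cdh5 and Clec4g stood in it, and Stab2 (2.31 and 2.39 against 2.37 and 2.09) did not. Of the cholangiocyte list, Krt19, Krt7, Sox9 and Prom1 were each at 1.31 FPKM or less at this age. Macrophage and neutrophil sums stood in another order (137 and 116 against 116 and 84.2, and 6.24 and 7.89 against 6.44 and 3.45), as did lymphocyte sums, and hepatocyte and erythroid sums were lower in E1KO and DKO than in WT and E2KO. At 8 months DKO was the highest column in 10 of 10 genes, against 26.7% of tested genes, with 262% to 786% of the WT level and a sum of 10.2 FPKM against 3.03 in WT, 2.08 in E1KO and 2.25 in E2KO. No member differed from WT by 1 in log2(FPKM+1) in either condition. Adding 1 FPKM to values this low keeps such differences small whatever the ratio, so this count says little of the ratios. The 8-month DKO column also held the highest sums of that age for cholangiocyte and progenitor markers (305 FPKM, against 32.2 to 47.5 in the other columns), neutrophil markers (20.2), lymphocyte markers (9.05) and macrophage markers (98.4, against 60.5 to 76.3), and the lowest for hepatocyte markers (16705, against 17824 to 21267). These sums rest mostly on the most abundant genes of each list, and their part in this order was not tested. From 2 to 8 months the members were higher in DKO in 10 of 10 (50.9% of tested genes) and lower in the columns labelled E1KO in 10 of 10 (50.3%). They were higher in 9 of 10 in WT and in 2 of 10 in E2KO. Over the genotypes no member passed for 8 against 2 months (limma, differences 0.01 to 0.09, adjusted p 0.909 to 0.987, none at an unadjusted p under 0.05), where 4.29% of tested genes passed in either direction.

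The other genes of mitosis moved with the members. Of 20 further mitotic kinase and checkpoint genes, 20 rose with CCl4 (median 1.86), 10 of which met the limit on low values without the CCl4 columns. Cdk1, the kinase that the B cyclins activate, went from 0.46 to 37.57 FPKM in WT and from 0.81 to 9.49 in DKO, and Aurka, the spindle pole kinase, from 1.35 to 26.08 and from 1.35 to 6.04. The checkpoint gene Mad1l1 went from 4.86 to 6.56 and from 5.04 to 6.84, so DKO was not the lower one. Of 9 tested anaphase and securin genes 8 rose (median 0.83). Among them Ube2c, a ubiquitin-conjugating enzyme of the anaphase-promoting complex, reached 77.18 FPKM in WT and 14.19 in DKO, and Cdca3 70.80 and 13.32, whereas Fzr1, the activator used after mitosis, was 6.76 and 5.74. Of 27 tested kinesin, spindle and cytokinesis genes 27 rose (median 1.99), such as Racgap1 (14.12 FPKM in WT with CCl4, 3.67 in DKO) and Ect2 (12.07 and 2.95), both of the cleavage furrow. Fam64a was the exception in order, at 1.57 in WT and 2.03 in DKO. Of 21 tested centromere, kinetochore and condensin genes 20 rose (median 1.97). Without the CCl4 columns only 1 of the 27 and 8 of the 21 met the limit on low values, so most entered through the columns where they are high. With no filter 29 of 30 and 21 of 22 rose, against 22.1% of all genes. Among the tested genes of the 4 lists DKO was below WT with CCl4 in 19 of 20, 8 of 9, 26 of 27 and 20 of 21, as were 6150 of all 11394. The DKO-by-CCl4 term passed in none of them; it was lower at an unadjusted p under 0.05 in 14, 5, 25 and 17, against 4.41% of tested genes.

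The genes of the regulator list followed in part. Of 15 tested genes in the list of DREAM, MuvB and FoxM1 regulators 8 rose and 2 fell (median 0.60). Among all 11394 tested genes 3800 rose and 2794 fell. Foxm1, which drives the late cycle genes, rose from 0.11 to 6.09 FPKM in WT, 0.14 to 3.55 in E1KO, 0.07 to 3.90 in E2KO and 0.16 to 1.48 in DKO, by 1.99 in the additive fit (adjusted p = 0.000252, limma); its DKO term was -1.19 (adjusted p = 0.287). E2f2 rose by 0.96 (adjusted p = 0.00158). Rbl2, a pocket protein of DREAM in resting cells, fell by 0.44 (adjusted p = 0.0256), and the values of Rb1 with CCl4 were 1.97 to 2.30 FPKM. Of 30 DNA replication genes 29 rose and 1, Mcm10, fell (median 2.16). Their values with CCl4 were below WT in 30 of 30 in DKO and in 10 of 30 in E2KO, against 6150 and 5703 of all 11394 tested genes. Among 6 tested CDK inhibitors 2 rose and 1 fell, near the shares over all tested genes. Cdkn2a encodes the inhibitors p16 and p19Arf and is a known target of PRC2. With CCl4 it was 0.29, 0.35, 0.15 and 9.97 FPKM in WT, E1KO, E2KO and DKO. At 2 months it was 0.00, 0.05, 0.06 and 1.40, so DKO was already the highest column. Its DKO-by-CCl4 term of 1.91 passed (adjusted p = 0.0148, limma), but on the log2(FPKM+1) scale rises from values near 0 are understated. Cdkn2a met the limit on low values through the DKO columns alone. With no filter the adjusted p was 0.00312 (limma). Cdkn2b was 0.12, 0.13, 0.06 and 0.44 at 2 months and 0.62, 0.55, 0.19 and 2.34 with CCl4 (DKO term 0.83, adjusted p = 0.268, limma). Others differed the other way with CCl4. Cdkn2c was 19.05, 11.09, 15.61 and 9.10 (DKO term -0.96, adjusted p = 0.521) and Cdkn1b 7.61, 6.22, 6.69 and 5.68 (-0.21, adjusted p = 0.819). The term was below 0 in 3 of 6.

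**Figure D5:**
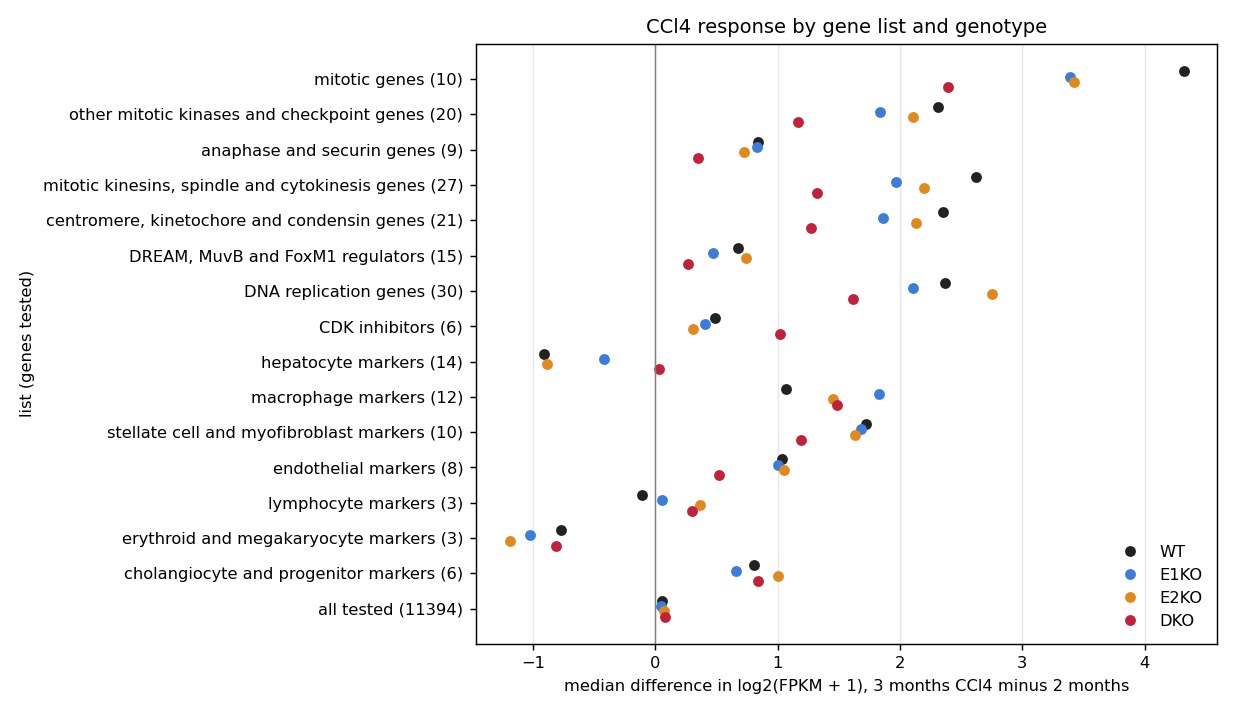
Median CCl4 response (difference in log2(FPKM + 1), CCl4 minus 2 months) of each gene list with at least 3 tested genes, by genotype; numbers of genes tested stand in brackets. The mitotic genes reach 4.32 in WT and 2.39 in DKO, and DKO is the lowest point in every list of mitosis and replication genes.

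The 8 genes outside the members whose 12 centred values lay nearest to the members' average profile were Prc1, Racgap1, Tpx2, Gins2, Tcf19, Nuf2, Asf1b and Ccna2. Their root mean square difference from it was 0.10 to 0.23 in log2(FPKM+1) over 12 columns, against a median of 1.55 over tested genes and 0.14 to 0.83 for the members themselves. Prc1, a protein that bundles spindle microtubules, was nearest, with 18.11, 11.26, 11.36 and 4.49 FPKM with CCl4 in WT, E1KO, E2KO and DKO. Cyclin A2 (Ccna2) was 28.59, 18.91, 20.16 and 8.12.

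Markers of several cell types moved with genotype among the CCl4 columns, and their part in the mitotic gene levels was not tested. Hepatocyte markers (14 genes) summed to 12703 FPKM in WT, 17099 in E1KO, 16730 in E2KO and 21259 in DKO, so the column with the highest mitotic levels had the lowest sum. By gene this held for DKO only: 8 of the 14 were below WT in E1KO, 8 in E2KO and 1 in DKO. The median differences from WT in log2(FPKM+1) were -0.05, -0.01 and 0.42. Cyp2e1, the P450 that activates CCl4, was 463.7 FPKM in WT, 151.1 in E1KO, 386.1 in E2KO and 3857 in DKO with CCl4, against 4759 to 5883 at 2 months (DKO term 3.93, adjusted p = 0.173, limma). Macrophage markers (12) summed to 241, 542, 311 and 429 FPKM in the same order, lowest where the mitotic genes were highest. Stellate cell and myofibroblast markers (10) summed to 172, 269, 163 and 120, with DKO lowest, and their member Tagln, a contractile protein gene, had a DKO-by-CCl4 term of -2.14 (adjusted p = 0.0471). The lower DKO sum lay in Tagln (63.51 FPKM in WT, 19.08 in DKO) and Acta2 (37.56 and 6.98): 5 of the 10 markers were below WT in DKO, and Lrat was at 2.27 and 5.53. Endothelial markers (8) summed to 99, 114, 103 and 114. Below WT were 4 of the 8 in DKO and 1 of the 8 in E1KO. Clec4g was at 50.86 FPKM in WT and 66.42 in DKO, while Lyve1 was at 4.39 and 3.42 and Cdh5 at 6.90 and 5.48. Neutrophil markers (7) summed to 13.1, 33.4, 21.4 and 51.7. S100a8 (7.22 FPKM in WT, 26.12 in DKO) and S100a9 (5.73 and 25.10) made up most of this sum, as they did at 2 months. Lymphocyte markers (10) summed to 2.6, 5.1, 6.07 and 6.57. Erythroid and megakaryocyte markers (10), whose precursors also divide, summed to 56.4, 51.8, 55 and 32. Alas2 made up most of this sum (45.99 FPKM in WT, 15.68 in DKO), while Klf1 (0.76 and 1.04) and Pf4 (8.69 and 13.34) were higher in DKO. Cholangiocyte and progenitor markers (8) summed to 410, 655, 323 and 696. Little of this sum lay in Krt19 (2.77 FPKM in WT, 1.86 in DKO), Krt7 (1.65 and 1.49), Sox9 (2.62 and 2.62) or Prom1 (0.42 and 2.47). Of the 6 tested, 3 were below WT in DKO, with a median difference of -0.04 in log2(FPKM+1). No listed marker was at 0 in every column. In the additive fit 10 of 12 macrophage, 10 of 10 stellate and 8 of 8 endothelial markers rose with CCl4, as did 5 of 6 tested cholangiocyte, 2 of 2 neutrophil and 1 of 3 lymphocyte markers. Of 14 hepatocyte markers 2 rose and 6 fell, of 3 tested erythroid markers 1 rose and 1 fell, and no muscle marker met the limit on low values. Over all 11394 tested genes 3800 rose and 2794 fell.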

How the data were processed

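RNA-seq of mouse liver was deposited as 1 table of FPKM values made by the authors, with 12 columns, 1 per group. Per the submitters' processing notes, CASAVA, TopHat, Cufflinks, BWA, SICER and HOMER were used in the series on mm9; the notes as given here hold neither versions nor roles, and how replicates were combined is not stated. Values are rounded to 0.01 FPKM and read counts were not recovered, so the depth behind a value is unknown, and counting error could not be computed. The 9 ChIP-seq samples were not used here.

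Columns were mapped to samples by title. The 11394 of 22520 genes that reached 1 FPKM in 2 or more columns were fitted as log2(FPKM+1) in R 4.3.3 by limma 3.58.1 (eBayes, trended prior), with additive genotype and condition terms (6 residual degrees of freedom) or with DKO-by-condition terms added (4). Adjusted p is Benjamini-Hochberg over all tested genes, two-sided, threshold 0.05. The fold changes understate those of low genes, being on the log2(FPKM+1) scale. The fit was tested on simulated data. Within a genotype or condition, a difference of 1 was counted, with no test.

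All members are named; of each list, at most the 2 genes with the largest and the 2 with the smallest DKO-minus-WT difference in CCl4 response; and the 8 genes of nearest profile. Mcm10's relatives and neighbours (closing section) and Elovl1 were looked up after its values or position were seen. The members and lists were chosen with earlier results of these data known. Alternatives were pseudocount, scaling, filter, trend, baseline age and left-out columns.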

Additional observations from a re-analysis of the deposited data

Results flagged for a closer look

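From 2 to 8 months the mitotic genes moved in opposite directions in 2 genotypes. All 10 were higher at 8 months in DKO, with a median difference in log2(FPKM+1) of 0.47, and all 10 were lower in the columns labelled E1KO, with a median of -0.24. Each rests on 1 value per age and the difference was not tested. The 8-month column labelled E1KO is the one with 43.1% of the WT level of Ezh1 and 328 FPKM of skeletal muscle markers.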

How the results depend on the processing

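The rise of all 10 genes with CCl4 was called under each of 11 alternatives: another pseudocount (0.1 FPKM), upper-quartile scaling, no filter, no trend, 8 months as baseline, without the 8-month columns, without the E1KO 8-month column, and without each genotype in turn. The DKO difference in response was called for 0 of 10 genes under each of its 10 alternatives, with a median between -1.88 (8 months as baseline) and -1.17 (without the WT columns), and 9 or 10 genes at an unadjusted p under 0.05. The 8-month contrast was called for 0 of 10 under each of 9. None of 210 values for single genes changed sign or its side of the threshold. Upper-quartile scaling took the number of genes at least 1 lower in E2KO than WT with CCl4 from 2 to 1. The pseudocount of 0.1 FPKM took the number at least 1 lower in DKO than WT with CCl4 from 9 to 10. It also took the number at least 1 higher with CCl4 than at 2 months within DKO from 9 to 10. The alternatives reuse the same 12 values and say nothing of the spread between animals. No paired analysis was possible because each group has 1 column, so replicate numbers cannot be matched; the additive fit compares conditions within genotypes.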

Other observations

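Among the DNA replication genes Mcm10 went against the rest. It was listed at 21.57 to 40.46 FPKM at 2 months and at 10.16 to 13.90 with CCl4, while Mcm5 was at 0.45 to 0.50 and 14.17 to 31.80, and Mcm2 at 0.61 to 0.80 and 9.95 to 17.80. Of its neighbours, Optn was at 24.43 to 27.80 FPKM at 2 months and 14.08 to 16.86 with CCl4, Ccdc3 at 0.32 to 0.58 and 0.98 to 2.19, and Ucma at 0.00 to 0.02 in both. No gene of the GRCm38.p6 table overlaps Mcm10, and whether its level in this table is that of the replication factor was not tested.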
